A study of Homo sapiens with 3 samples.

Results

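The genes described here are 9 early response genes of the IER, ZFP36 and BTG families: IER2, IER3, IER5, ZFP36, ZFP36L1, ZFP36L2, BTG1, BTG2 and BTG3. They were chosen by gene symbol, and every probe set (a group of short oligonucleotides that reads 1 transcript region) whose single symbol is one of these was used. That gave 19 of the 54675 probe sets on the array and 8 of the 19775 genes measured. BTG2 has no probe set under its single symbol in the annotation used and was not analysed here. RNA came from T47D, an established human breast cancer line of luminal type that carries the estrogen receptor. All cells spent 4 h in medium with 10% charcoal-stripped serum, which is poor in steroids, before treatment. The vehicle cells then received 0.1% ethanol, the estradiol cells 1 uM estradiol and the tamoxifen cells 1 uM tamoxifen, each for 3 h. Each treatment was read on 1 array, so no value below has a replicate and no test between treatments could be made.

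Early response genes are transcribed within minutes to hours of a stimulus without new protein synthesis, and their messenger RNAs are short-lived. The ZFP36 proteins are zinc finger proteins that bind AU-rich elements of messenger RNAs and bring in the CCR4-NOT deadenylase, which shortens the poly(A) tail and starts decay. The BTG proteins restrain proliferation and also bind the deadenylase subunits of CCR4-NOT. The IER genes share the way they are induced more than a common activity: IER2 and IER5 encode related nuclear proteins and IER3 encodes a regulator of stress and cell death.

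The promoters of IER2 and IER5 are shown because these were the 2 genes at least 1.5-fold lower on both treated arrays. That of ZFP36 is shown as an example of a gene under that size in both. Each is the 250 bases before the gene's start, from RefSeq on build GRCh38.p14, on the plus strand, 5′ to 3′. Capitals mark matches on either strand to the motifs named below.
IER2, chr19:13150161-13150410: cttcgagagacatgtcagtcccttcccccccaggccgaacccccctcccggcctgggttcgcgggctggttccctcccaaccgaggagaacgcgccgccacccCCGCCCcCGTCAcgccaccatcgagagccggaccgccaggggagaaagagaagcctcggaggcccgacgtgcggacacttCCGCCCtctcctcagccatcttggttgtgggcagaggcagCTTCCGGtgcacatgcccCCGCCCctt
IER5, chr1:181088450-181088699: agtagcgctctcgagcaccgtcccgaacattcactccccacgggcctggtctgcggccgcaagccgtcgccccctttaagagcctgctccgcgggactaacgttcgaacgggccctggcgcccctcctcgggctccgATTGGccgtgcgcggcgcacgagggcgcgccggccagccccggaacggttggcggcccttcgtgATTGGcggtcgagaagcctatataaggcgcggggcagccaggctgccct
ZFP36, chr19:39406597-39406846: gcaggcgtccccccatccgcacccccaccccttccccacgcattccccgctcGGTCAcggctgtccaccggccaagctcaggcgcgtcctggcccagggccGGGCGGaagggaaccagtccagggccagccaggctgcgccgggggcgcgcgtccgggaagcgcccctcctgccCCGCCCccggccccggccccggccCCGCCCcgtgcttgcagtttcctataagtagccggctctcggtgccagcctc

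IER2 and IER5 had no motif in common among the 9 searched. The IER2 window held 3 GC boxes (GGGCGG, present in 42.6% of all 35116 promoter windows of that length), 1 core of the cyclic AMP response element (TGACG, 21.2%) and 1 ETS site (CCGGAAG, 8.52%). The IER5 window held 2 CCAAT boxes (CCAAT, 32.0%), starting 113 and 49 bases before the gene, and none of the others. The ZFP36 window held 3 GC boxes and 1 core of the estrogen response element (GGTCA, 32.6%), 198 bases before the gene. The whole element (that core, 3 bases of any kind and the core's reverse complement, 0.0399%), the AP-1 site (TGACTCA, 4.2%) and the CArG box bound by serum response factor (1.16%) had no match in the 8 windows of the 7 genes with an entry (IER3 and ZFP36L2 had none), and the TATA box letters (TATAAA, 10.7%) matched in BTG1. All 3 printed windows were rich in G and C, at 69.6% for IER2, 70.4% for IER5 and 76.4% for ZFP36 against a median of 58.0% over all windows. A match describes letters in a window and is no measurement of binding.

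The deposited values are log2 values centred per probe set, so a value says how far an array lies from a reference for that probe set and not how strongly the gene was expressed. Differences between arrays are kept, and they are given relative to the median difference of all genes, which was -0.0057 for estradiol over vehicle, 0.10 for tamoxifen over vehicle and 0.11 between the treated arrays (tamoxifen minus estradiol). Where a gene has several probe sets its value is their median, and a gene is called past the cutoff at a difference of at least 2-fold (1 on the log2 scale). The vehicle array stood apart from the treated arrays in the array's own controls. Probe sets for 18S ribosomal RNA were 1.86 higher with estradiol and 1.96 higher with tamoxifen than with vehicle, bacterial spike transcripts 0.70 and 0.49 higher, and the ACTB difference of 3′ and 5′ signal was -0.78 and -0.77, all as log2 differences as deposited. Between the treated arrays those 3 values were 0.043, -0.15 and 0.0058. Both comparisons with vehicle share this array, their results below stand beside these control values, and the part of the controls in them was not tested. The deposited values also varied less on the vehicle array, with an SD over all probe sets of 0.19 against 0.41 with estradiol and 0.44 with tamoxifen. Quantile normalisation gives the 3 arrays the same spread, so it changes the scale of differences from vehicle and can turn their sign. The T47D identity could not be checked against marker levels, since levels were not kept. Of 9 measured markers of fibroblasts, leukocytes, endothelium and basal cells, 0 passed the cutoff in any comparison, with list medians of 0.12, 0.33 and -0.067 in the order above. Of 7 luminal markers 1 passed it, the progesterone receptor PGR, at 1.48 for estradiol and 1.07 for tamoxifen against vehicle. The shares of all genes past it were 3.31%, 3.43% and 0.228% in the order above.

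Across the 8 measured genes, the largest differences from vehicle were those of IER2 and IER5. With estradiol 1 of 8 genes was past the cutoff, lower, where 3.31% of all genes were past it in either direction and 1.68% lower. With tamoxifen 1 of 8 was past it, also lower, against 3.43% of all genes in either direction and 1.79% lower. Between tamoxifen and estradiol 0 of 8 passed, against 0.228% of all genes. The gene called was IER2 in both cases. Of the 19 probe sets, 2 were past the cutoff with estradiol and 1 with tamoxifen, all lower. Of all 41097 probe sets with 1 symbol, 6.23% and 6.92% were past it in either direction. In RNA of whole cultures, fewer cells that make a transcript and less of it per cell cannot be told apart. The medians of the 8 genes were -0.26, -0.13 and 0.052, where the median of all genes is 0 by construction. With estradiol 8 of 8 values lay below 0, though 4 of them (IER3, ZFP36, BTG1 and BTG3) lay between -0.15 and -0.018, and without the probe sets that can match several transcripts (suffix _s_at or _x_at) the split was 5 below and 2 above. With tamoxifen 6 lay below and 2 above, which became 4 and 4 in the values as deposited and 7 and 1 after quantile normalisation. Without the _s_at and _x_at probe sets the tamoxifen split was 3 below and 4 above, and the median turned to 0.034. After centring, the vehicle array was the highest of the 3 for 11 of the 19 probe sets (38.1% of all probe sets with 1 symbol), the estradiol array for 1 (29.7%) and the tamoxifen array for 7 (32.2%). As deposited these counts were 8, 1 and 10, beside 33.0%, 20.4% and 46.6% of all.

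**Figure D1:**
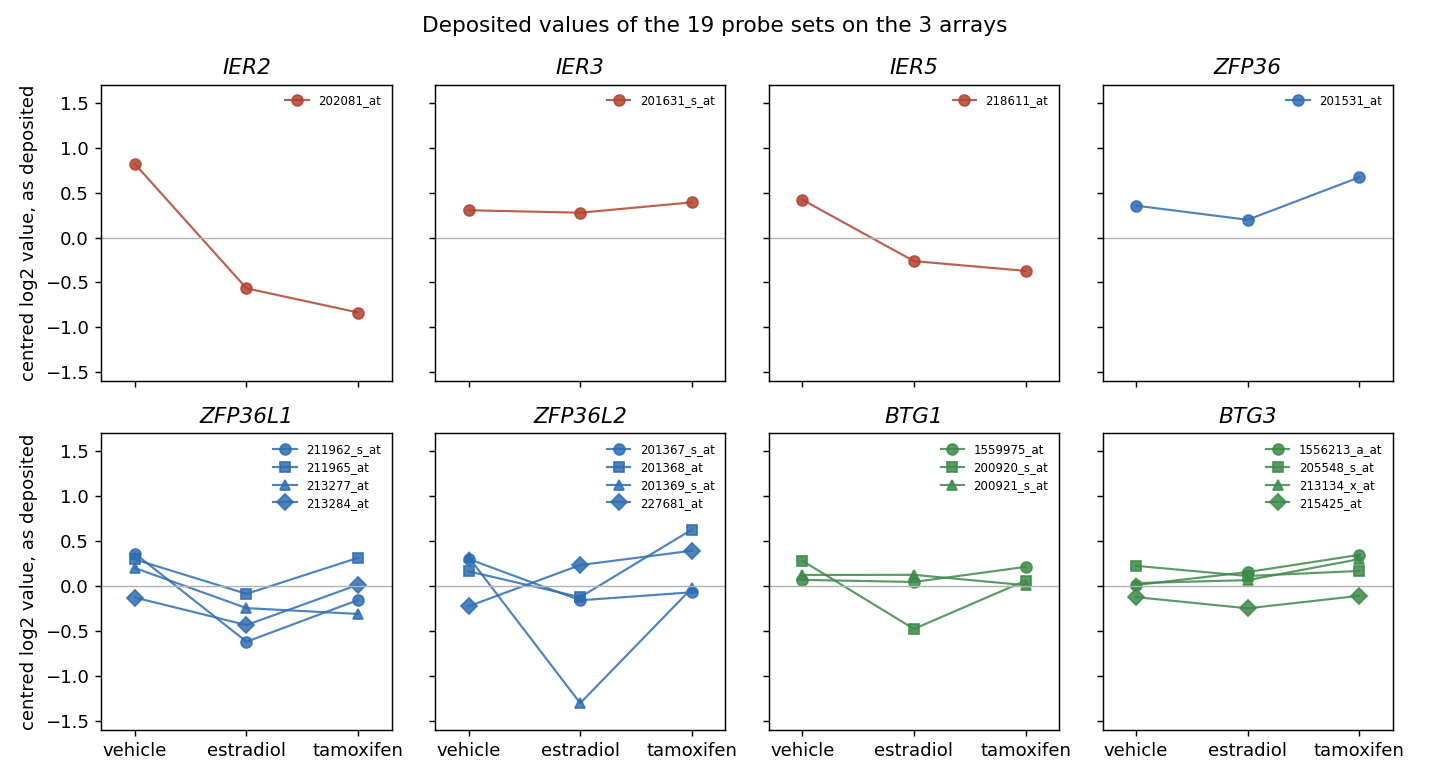
Deposited centred log2 values (vertical axis) on the vehicle, estradiol and tamoxifen arrays (horizontal axis), with 1 panel per gene and 1 line per probe set (IER genes red, ZFP36 genes blue, BTG genes green). IER2 runs from 0.82 on vehicle to -0.84 on tamoxifen, while 1 of the 4 ZFP36L2 probe sets drops to -1.30 on the estradiol array alone.

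IER2, a growth factor-induced nuclear protein, had the largest gene values of the group against vehicle. Its probe set 202081_at read 0.82 with vehicle, -0.57 with estradiol and -0.84 with tamoxifen. The vehicle array was thus high and both treated arrays low. IER2 was 2.60-fold lower with estradiol (log2 difference -1.38) and 3.38-fold lower with tamoxifen (-1.76). Of 19775 genes, 65 lay below it in the estradiol comparison and 28 in the tamoxifen comparison. For 10523 of the 19775 genes the value is a median over at least 2 probe sets. Quantile normalisation of the 3 arrays moved the IER2 values to -2.12 and -2.38. IER2 has 1 probe set, so its difference has no second reading within the array.

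IER5, a nuclear protein related to IER2 and known as an activator of the heat shock factor HSF1, had the same order of arrays as IER2 with smaller steps. Its probe set 218611_at read 0.42 with vehicle, -0.26 with estradiol and -0.37 with tamoxifen. IER5 was 1.60-fold lower with estradiol (-0.68) and 1.86-fold lower with tamoxifen (-0.90), both short of the cutoff. After quantile normalisation, which widens the narrower spread of the vehicle array, it passed, at -1.11 and -1.25. At a cutoff of 1.5-fold, IER2 and IER5 were the 2 of 8 genes called in each comparison with vehicle, both lower, against 8.74% of all genes lower with estradiol and 8.87% with tamoxifen.

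IER3, which encodes a stress-induced regulator of cell survival, did not share this pattern. Its probe set 201631_s_at read 0.30, 0.28 and 0.39 on the vehicle, estradiol and tamoxifen arrays. The relative differences were -0.022 for estradiol, -0.016 for tamoxifen and 0.00022 between the treated arrays, near the middle of all genes. Quantile normalisation, with its widening of the vehicle values, moved the first pair to -0.32 and -0.36. Between tamoxifen and estradiol, IER2 lay at -0.38 and IER5 at -0.22, with 4.54% and 13.8% of all genes below them.

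**Figure D2:**
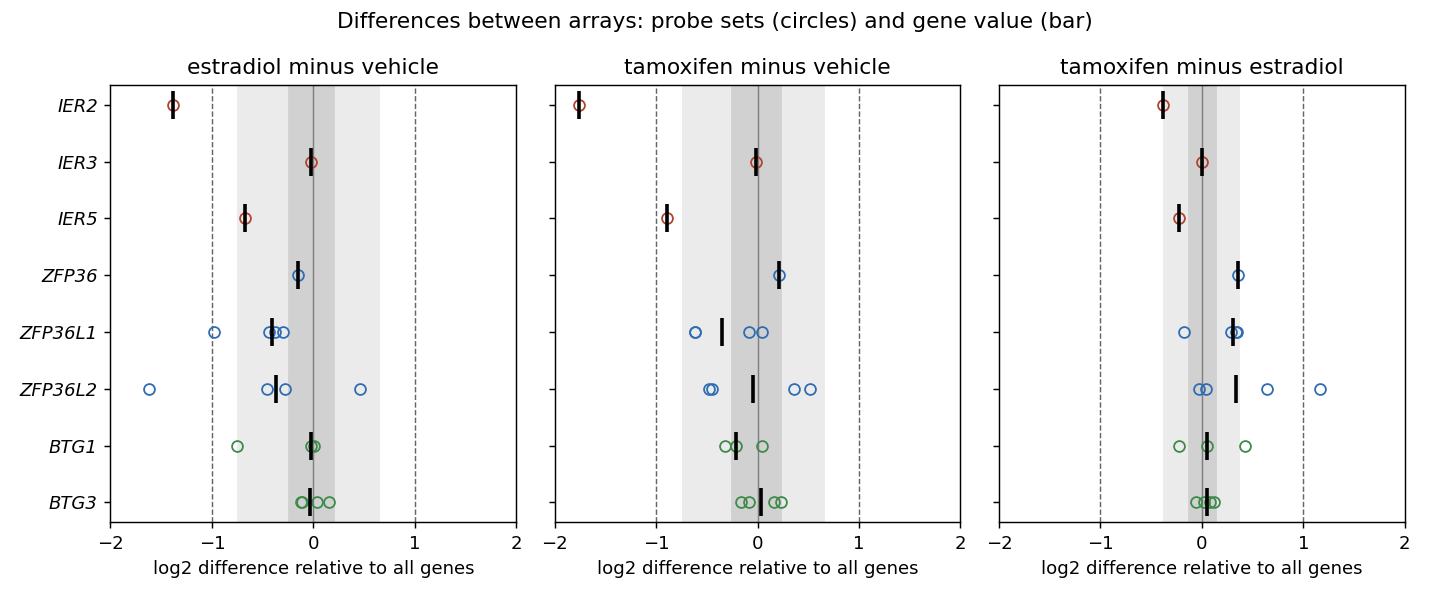
Log2 differences between arrays relative to all genes (horizontal axis) for the 8 measured genes (rows), in 3 panels for the 3 comparisons. Circles are probe sets, black bars gene values, dark and light grey bands the middle 50% and 90% of all genes, and dashed lines the 2-fold cutoff: IER2 lies at -1.38 and -1.76 against vehicle, and in the right panel the gene values of ZFP36, ZFP36L1 and ZFP36L2 lie between 0.31 and 0.36.

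The ZFP36 family was mostly lowest on the estradiol array, for 7 of 9 probe sets as deposited (37.3% of all probe sets with 1 symbol) and 6 of 9 after centring on all genes (28.6%). ZFP36, the decay factor also called tristetraprolin, read 0.36 with vehicle, 0.20 with estradiol and 0.67 with tamoxifen on its probe set 201531_at. The estradiol array was thus the lowest and the tamoxifen array the highest. Its relative differences were -0.15 for estradiol and 0.21 for tamoxifen against vehicle. Quantile normalisation, which widens the narrower spread of the vehicle array, moved the first to -0.52 and turned the second to -0.26.

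ZFP36L1, a paralogue with the same pair of zinc fingers, was read by 4 probe sets that all lay lower on the estradiol array than on the vehicle array. Probe set 211962_s_at read 0.36, -0.62 and -0.16 on the vehicle, estradiol and tamoxifen arrays. Probe set 211965_at read 0.30, -0.087 and 0.31 in the same order. Probe set 213277_at read 0.20, -0.25 and -0.31, and 213284_at read -0.13, -0.43 and 0.014. The 4 relative differences for estradiol ranged from -0.98 to -0.30, with a gene value of -0.41 (1.33-fold lower). For tamoxifen they ranged from -0.62 to 0.039, with a gene value of -0.35, so that the probe sets did not share a sign. Without the _s_at probe set the tamoxifen value was -0.093.

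ZFP36L2, the third paralogue, had the widest spread between probe sets. Probe set 201369_s_at read 0.32 with vehicle, -1.30 with estradiol and -0.025 with tamoxifen, a relative difference of -1.62 for estradiol. Probe set 201368_at read 0.16, -0.12 and 0.63, and 201367_s_at read 0.30, -0.16 and -0.070. Probe set 227681_at went the other way, at -0.23, 0.23 and 0.39. The gene value was -0.37 for estradiol and -0.044 for tamoxifen. The range over its 4 probe sets was 2.09 for estradiol, against a median range of 0.52 over the 10523 genes with at least 2 probe sets. Without the _s_at probe sets the gene values were 0.086 and 0.43, so the sign of ZFP36L2 against vehicle depended on the probe sets used.

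Between tamoxifen and estradiol, a comparison that does not use the vehicle array, the ZFP36 genes were on the same side of 0. The values were 0.36 for ZFP36 (1.28-fold higher with tamoxifen), 0.31 for ZFP36L1 (1.24-fold) and 0.34 for ZFP36L2 (1.27-fold). Of all genes, 94.8%, 92.5% and 94.1% lay below these values. None of the 3 reached the cutoff. The direction held for each of the 3 genes after quantile normalisation (0.25 to 0.27) and without the _s_at probe sets (0.29 to 0.36). It also held with probe sets averaged, from 0.20 for ZFP36L1 to 0.46 for ZFP36L2. ZFP36 has 1 probe set, so averaging or leaving out _s_at probe sets acts on it only through the all-gene median. All these alternatives reread the same arrays. The values as deposited (0.42 to 0.47) differ from the gene values above only by the all-gene median of 0.11. Single probe sets differed, since 3 of 4 were above 0 for ZFP36L1 (range -0.18 to 0.35) and 3 of 4 for ZFP36L2 (range -0.026 to 1.16). The probe set 201369_s_at of ZFP36L2 was the 1 of 19 past the cutoff in this comparison, where 0.457% of all 41097 probe sets with 1 symbol passed. The median SD between probe sets of a gene was 0.20 here, so gene values of this size are less than 2 such SDs from 0. That SD describes how probe sets differ on the same 2 arrays and gives no spread between samples.

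The BTG family differed little between arrays. BTG1, an antiproliferative partner of the deadenylase, was read at 0.28, -0.48 and 0.059 on the vehicle, estradiol and tamoxifen arrays by probe set 200920_s_at. Its other probe sets showed no such dip with estradiol: 200921_s_at read 0.12, 0.12 and 0.0095, and 1559975_at read 0.069, 0.045 and 0.21. The BTG1 gene values were -0.018 for estradiol, -0.22 for tamoxifen and 0.053 between the treated arrays. Without the _s_at probe sets its tamoxifen value was 0.034. BTG3, another member that binds the deadenylase, had 4 probe sets whose relative differences ranged from -0.12 to 0.15 for estradiol and from -0.16 to 0.23 for tamoxifen. Its gene values were -0.034, 0.038 and 0.051. On each array the BTG3 readings lay between -0.25 and 0.35, and the 4 probe sets were the closest to each other of the genes here with several probe sets in the estradiol comparison and in that of tamoxifen with estradiol.

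The closest relatives of these genes that are not members are IER5L, TOB1, TOB2 and BTG4, of which TOB1 and TOB2 encode antiproliferative proteins of the BTG fold. TOB1 was the 1 of 4 past the cutoff, 3.01-fold higher with estradiol (1.59) and 2.47-fold higher with tamoxifen (1.30). Of all genes, 3.31% and 3.43% were past it in these comparisons. Its 2 probe sets disagreed, at 0.31 and 2.87 for estradiol and at -0.22 and 2.83 for tamoxifen. TOB2 lay at -0.94 and -0.48 and IER5L at -0.82 and -0.75, both under the cutoff. BTG4 lay at 0.14 and 0.34. Between tamoxifen and estradiol 0 of the 4 passed, against 0.228% of all genes, with a median of -0.090.

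Other early response genes were mostly on the lower side against vehicle as well. Of 34 measured genes, 26 lay below 0 with estradiol (median -0.22) and 26 with tamoxifen (median -0.46). Past the cutoff were 5 lower and 2 higher with estradiol and 7 lower and 1 higher with tamoxifen, beside the all-gene shares of 3.31% and 3.43%. The AP-1 subunit JUNB was 3.65-fold lower with estradiol, and PPP1R15A, which directs dephosphorylation of eIF2 alpha, 3.62-fold lower. With tamoxifen, MAFF, a small MAF transcription factor, was 4.77-fold lower (probe sets at -4.03 and -0.48), PPP1R15A 3.41-fold lower and JUN 2.79-fold lower. These genes were past the cutoff with the other treatment too, JUNB at -1.21 with tamoxifen, MAFF at -1.73 and JUN at -1.63 with estradiol. The JUN value of -1.48 with tamoxifen became -0.65, under the cutoff, without its _s_at and _x_at probe sets. The growth regulator MYC went the other way, 4.54-fold higher with estradiol. Between tamoxifen and estradiol 3 of 34 passed, against 0.228% of all genes: SGK1 (-1.32), MYC (-1.04) and KLF10 (-1.001). All were lower with tamoxifen, as were 40 of the 45 genes past the cutoff among all genes. In the values as deposited, MYC (-0.93) and KLF10 (-0.89) were under the cutoff. JUNB, MYC, SGK1 and KLF10 were each read by 1 probe set.

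**Figure D3:**
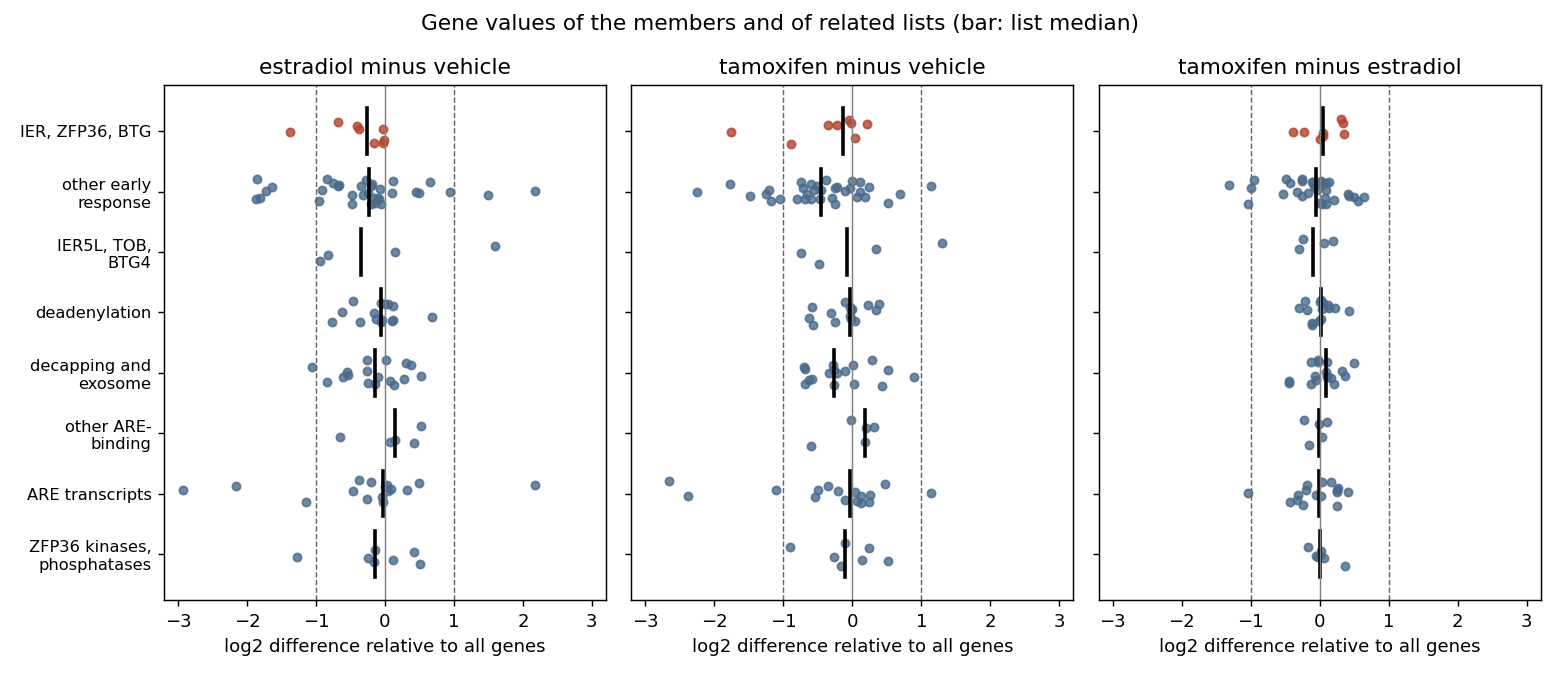
Gene values as log2 differences relative to all genes (horizontal axis) for the 8 IER, ZFP36 and BTG genes (red) and 7 related lists (blue), in 3 panels for the 3 comparisons; points are genes, black bars list medians, dashed lines the 2-fold cutoff and ARE stands for AU-rich element. The other early response genes reach from -2.25 to 2.18 against vehicle, while the 15 deadenylation genes stay between -0.77 and 0.69.

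The decay machinery that the ZFP36 and BTG proteins recruit was also measured. Of 15 deadenylation genes, mainly CCR4-NOT subunits, 0 passed the cutoff in any comparison, and the medians were -0.052, -0.030 and 0.014. Of 17 decapping and exosome genes 1 passed, EDC4, a decapping scaffold, at -1.05 with estradiol, with list medians of -0.15, -0.27 and 0.094. With tamoxifen 11 of these 17 lay below 0, and the list median was below the lower quartile of all genes (-0.25). Among 5 other proteins that bind AU-rich elements 0 passed, with medians of 0.15, 0.18 and -0.0068. Of 7 genes of the kinase and phosphatase pathway that controls ZFP36 activity 1 passed, PPP2R1A, the scaffold of phosphatase PP2A, at -1.28 with estradiol, and the medians were -0.14, -0.11 and 0.0092. EDC4 and PPP2R1A were each read by 1 probe set. For comparison, 3.31% of all genes were past the cutoff with estradiol, 3.43% with tamoxifen and 0.228% between the treated arrays.

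Transcripts known to hold AU-rich elements moved both ways. Of 16 measured, 3 were lower and 1 higher past the cutoff with estradiol, and again 3 and 1 with tamoxifen, with medians of -0.034 and -0.031. Of all genes, 3.31% and 3.43% were past it in either direction. The chemokine CCL20 was 7.58-fold lower with estradiol and 6.29-fold lower with tamoxifen. The cytokine TNF was 4.45-fold and 5.23-fold lower. MYC, which is also counted among the early response genes above, was the higher one, at 2.18 and 1.14. CCL20, TNF and MYC were each read by 1 probe set. Between tamoxifen and estradiol MYC was the 1 of 16 past the cutoff, against 0.228% of all genes, and the list median was -0.017.

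For 1 gene of each family, the genes with the nearest pair of differences from vehicle were sought among the 10523 genes with at least 2 probe sets, by Euclidean distance over 3 arrays. IER2 had no gene within 0.1. Its nearest were PMAIP1, which encodes the death regulator NOXA (distance 0.18, values -1.25 and -1.88), YARS1, a tRNA synthetase (0.20, -1.31 and -1.57), and ISG20, an exonuclease gene (0.25, -1.62 and -1.72). ZFP36 had 148 genes within 0.1, the nearest being RNF19A at 0.012, ST6GAL1 at 0.016 and TPD52L3 at 0.018. With 3 arrays such closeness is a description of these arrays. For BTG2, the gene of the third family in this search, no pattern was available.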

How the data were processed

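RNA of 3 T47D samples (vehicle, estradiol, tamoxifen, grouped by the treatment in the labels) was read on 1 Affymetrix array each. The deposited log2 values were made by the authors with RMA, per the submitters' processing notes; its version and software are not stated in these sources. Their centring per probe set is recorded in no label and is read from values of both signs around 0, and log base 2 is taken from RMA. RMA pulls differences of weakly hybridised probe sets towards 0, and signal strength is not kept in these values. Depth does not apply to arrays, whose number limits the precision.

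Symbols were taken from the platform's annotation: 41097 probe sets had 1 symbol, 1801 several and 11777 none, and the last 2 kinds were left out. Per probe set the difference between 2 arrays was taken, then a gene's median over its probe sets, and the all-gene median was subtracted. A difference of at least 2-fold passed. No filter on signal and no test was possible with 1 array per group. Alternatives were the mean over probe sets, no _s_at or _x_at probe sets, no recentring, quantile normalisation and a 1.5-fold cutoff. The members, the lists and the rule for named genes (the members, up to 3 genes with the largest difference per list and comparison, and the 3 nearest genes to IER2, ZFP36 and BTG2) were chosen with earlier results of these data known. The calculation was run on permuted values with known shifts added, which checks its arithmetic and not the calls made here. Promoter sequences came from RefSeq (GRCh38.p14). Python 3.11.15, numpy 2.4.6 and pandas 2.3.3 were used.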

Additional observations from a re-analysis of the deposited data

How the results depend on the processing

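Of 93 member values recomputed under the alternatives, 83 stayed on their side of the cutoff and within 1 typical SD between probe sets, 8 moved by more and 2 passed the cutoff in the same direction. The 24 values after quantile normalisation held 6 of those that moved and the 2 that passed. Averaging probe sets and leaving out the recentring each kept all 24 values. Leaving out the recentring shifts every gene alike, and averaging barely acts on the 4 members with 1 probe set. Much of the 83 was thus fixed beforehand. IER2 was past the cutoff against vehicle in every alternative run. The count of members past it rose from 1 to 2 with estradiol and with tamoxifen, both under quantile normalisation and at 1.5-fold. Among all 19775 genes, quantile normalisation took the counts past the cutoff from 321 higher and 333 lower to 352 and 598 with estradiol. With tamoxifen they went from 326 higher and 353 lower to 324 and 515. At 1.5-fold the counts in the order estradiol, tamoxifen, tamoxifen minus estradiol were 15, 16 and 5 for other early response genes, and in the comparisons with vehicle 3 and 2 for relatives, 3 and 1 for deadenylation, 3 and 5 for decapping and exosome, 1 and 1 for AU-rich element binding, with 1 for the ZFP36 kinases and phosphatases with tamoxifen. These list counts are in either direction. The only all-gene shares counted at that size are for lower genes, 8.74% with estradiol and 8.87% with tamoxifen. The 1.5-fold list counts thus have no like share beside them. Quantile normalisation gave 13, 14 and 1 for other early response genes, 3 and 2 for relatives, 0 for decapping and exosome with estradiol and 0 for AU-rich transcripts between the treated arrays. Without _s_at and _x_at probe sets, early response counts were 4 with tamoxifen and 1 between the treated arrays, and AU-rich transcripts 2, 2 and 0. As deposited, the counts between the treated arrays were 1 and 0 for the same lists. With probe sets averaged, 1 decapping and exosome gene passed with tamoxifen. MYC, TNF and KLF10 have only _s_at or _x_at probe sets, so without those they left the counts for lack of a value. The cause of the other shifts was not tested. Of all genes past the cutoff, 49.1%, 48.0% and 11.1% were higher in the 3 comparisons, 47.9%, 66.4% and 42.9% as deposited and 37.1%, 38.6% and 5.56% after quantile normalisation. No paired analysis was possible because each group had 1 array. Signal over background is unknown.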
